A study of Mus musculus with 4 samples.

Results

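The 39 genes described here are interferon-stimulated genes, taken by symbol from a liver count table of 22155 gene symbols. They are 25 antiviral genes best known as targets of type I interferon (4 sensors of foreign nucleic acid, 18 effectors and 3 genes of the ISG15 pathway), 7 transcription factors of the pathway and 7 GTPases best known as targets of interferon gamma. All 39 had enough counts to be tested. The tissue was whole liver of wild-type C57BL/6 mice, an inbred laboratory strain, aged 8 to 10 weeks. Mice of the gavage group drank Lieber-DeCarli liquid diet with 5% ethanol for 10 days, then had a binge of 5 g ethanol per kg body weight into the stomach and were killed 9 h later. Mice of the ethanol-alone group drank the same diet, so ethanol feeding is common to both groups, and no group without ethanol was analysed here. Whether they had a control gavage, and when they were killed, is not given in the sources used here. Each group had 2 libraries. The labels name no separate animal for each library, so a p-value measures only the spread between these samples.

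Interferons are secreted proteins that put cells into an antiviral state. Type I interferons act through the kinases Jak1 and Tyk2 on a factor containing Stat2 and Irf9 that binds the interferon-stimulated response element (ISRE), whereas interferon gamma acts through Jak1 and Jak2 and the gamma-activated site (GAS). Hepatocytes, resident macrophages (Kupffer cells) and endothelial cells of the liver all respond to both, and many genes respond to either. Antiviral effectors bind or destroy viral RNA or block entry and budding, while the guanylate-binding (Gbp) and immunity-related (Irg) GTPases attack the membranes around intracellular parasites and bacteria.

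Promoters of 6 members are shown because they hold the letters of the ISRE, the GAS or both, through which these pathways are known to act. Each is the 250 bases before the annotated start, read 5′ to 3′ on the gene's strand from RefSeq sequence of build GRCm38.p6. Capitals mark a match to the ISRE core GAAANNGAAA, to its reverse complement TTTCNNTTTC, or to the GAS core TTCNNNGAA, which reads the same on both strands.
Isg15, chr4:156200819-156201068, minus strand: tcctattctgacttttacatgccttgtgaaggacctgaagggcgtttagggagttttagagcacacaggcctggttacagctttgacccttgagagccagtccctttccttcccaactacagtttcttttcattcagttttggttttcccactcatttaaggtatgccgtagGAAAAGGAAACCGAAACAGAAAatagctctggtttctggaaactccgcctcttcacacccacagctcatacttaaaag
Bst2, chr8:71537473-71537722, minus strand: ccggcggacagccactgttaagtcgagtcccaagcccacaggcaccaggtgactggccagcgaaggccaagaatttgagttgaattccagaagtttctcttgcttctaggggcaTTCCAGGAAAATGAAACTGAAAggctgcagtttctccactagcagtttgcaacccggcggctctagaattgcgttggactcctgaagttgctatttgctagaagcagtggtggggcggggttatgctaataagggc
Ifit1, chr19:34640639-34640888, plus strand: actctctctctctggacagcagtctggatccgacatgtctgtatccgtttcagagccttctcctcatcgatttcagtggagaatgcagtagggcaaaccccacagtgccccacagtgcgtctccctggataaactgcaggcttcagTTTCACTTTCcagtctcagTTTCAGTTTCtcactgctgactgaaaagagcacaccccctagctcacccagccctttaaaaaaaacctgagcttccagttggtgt
Gbp2, chr3:142620413-142620662, plus strand: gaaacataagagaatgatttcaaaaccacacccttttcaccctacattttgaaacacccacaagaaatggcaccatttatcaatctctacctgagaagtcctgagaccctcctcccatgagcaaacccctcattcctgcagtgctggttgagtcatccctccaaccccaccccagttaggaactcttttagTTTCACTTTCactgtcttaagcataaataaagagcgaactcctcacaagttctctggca
Igtp, chr11:58199306-58199555, plus strand: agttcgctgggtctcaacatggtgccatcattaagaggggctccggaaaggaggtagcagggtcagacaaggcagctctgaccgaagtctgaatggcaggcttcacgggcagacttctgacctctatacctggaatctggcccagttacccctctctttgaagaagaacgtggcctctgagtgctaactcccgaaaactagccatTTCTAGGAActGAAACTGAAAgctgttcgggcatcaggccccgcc
Irgm2, chr11:58214727-58214976, plus strand: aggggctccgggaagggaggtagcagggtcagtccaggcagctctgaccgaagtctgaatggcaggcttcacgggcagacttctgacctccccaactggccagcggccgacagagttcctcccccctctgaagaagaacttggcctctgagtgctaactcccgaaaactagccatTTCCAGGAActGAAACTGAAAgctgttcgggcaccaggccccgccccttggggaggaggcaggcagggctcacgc

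Isg15 held 3 overlapping ISRE cores between 78 and 57 bases before its start, and Bst2 held a GAS core 136 to 128 bases before its start that ran into 2 overlapping ISRE cores. Ifit1 held 2 separate ISRE cores and Gbp2 held 1 ISRE core, 59 to 50 bases before the start. Igtp and Irgm2, neighbours on chromosome 11, had the same arrangement, a GAS core followed after 2 bases by an ISRE core on the gene's strand. RefSeq windows matched 31 of the 39 members (Dhx58, Zbp1, Mx1, Mx2, Ifi27l2a, Parp14, Usp18 and Iigp1 had no entry). These genes had 36 windows, of which 15 (41.7%) held an ISRE core, against 2.98% of all 32851 promoter windows of the same length, and 10 (27.8%) held a GAS core, against 7.02%. Counted by gene, 15 and 10 of the 31 had one. By class, the ISRE core was in 6 of 6 GTPase genes, 7 of 18 type I antiviral genes and 2 of 7 factor genes. The GAS core was in 3 of 6 GTPase genes, 4 of 18 type I antiviral genes and 3 of 7 factor genes, and the window of Irf7 held neither. A match describes the letters in this window only.

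**Figure D1:**
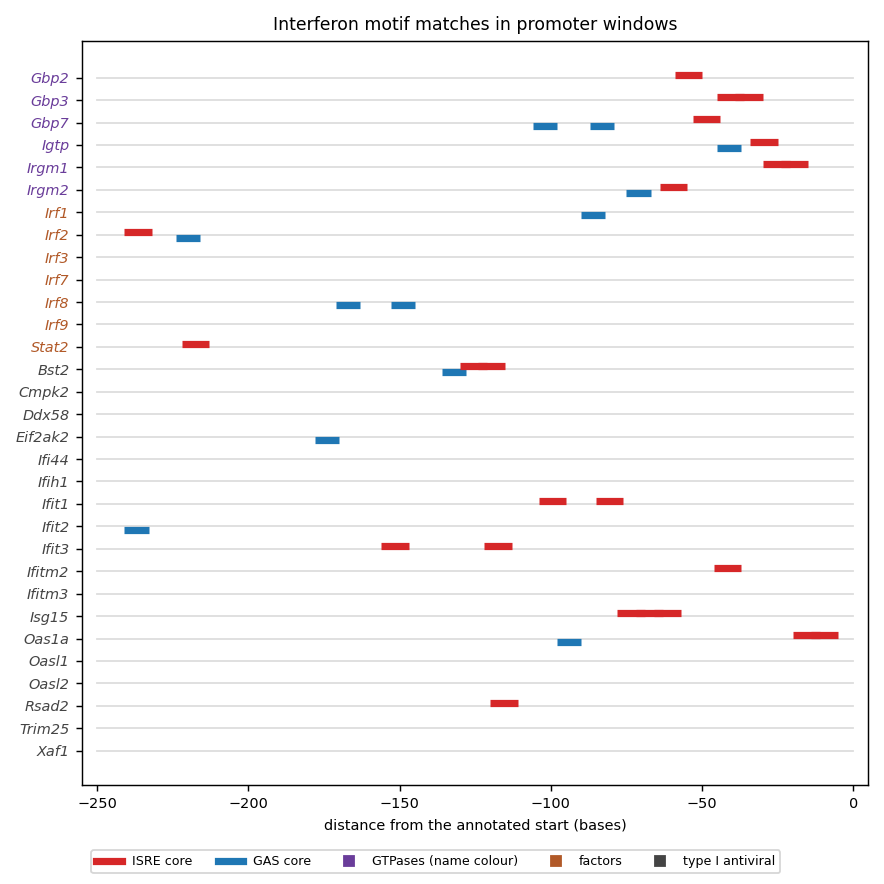
Positions of ISRE cores (red) and GAS cores (blue) in the 250 bases before the annotated start of the 31 members with a RefSeq window; the x axis is the distance from the start in bases, and name colours give the class. All 6 GTPase genes have an ISRE core, within the last 64 bases, and 3 of them also have a GAS core.

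Total counts were 29914491 and 30039731 in the gavage libraries and 28791281 and 30347558 in the ethanol-alone libraries. Values below are CPM, counts scaled to the size of the library, in the order replicate 1 and replicate 2, and 3 counts correspond to 0.0955 to 0.11 CPM. The libraries numbered 1 of both groups stood apart in that they held skeletal muscle and fat transcripts. Summed CPM of 5 muscle genes was 546 and 1.03 in the gavage libraries and 273 and 8.79 in the ethanol-alone libraries, and Adipoq, the fat hormone adiponectin, stood at 8.92 and 0.0664 CPM with gavage against 5.53 and 0 CPM with ethanol alone. Ratios within the libraries of the same number are therefore given for the GTPases and for other members with large differences. The highest muscle gene, the actin Acta1, had 293.7 and 0.199 CPM with gavage and 110.4 and 3.96 CPM with ethanol alone. Car3, the highest gene of the fat list by CPM but one that hepatocytes make too, had 549 and 558 CPM with gavage and 1975 and 1924 CPM with ethanol alone, a difference by group and not by number. Of the 8 hepatocyte markers 6 lay lower in the gavage group, with a median log2 fold change of -0.73 (-1.12 in the libraries numbered 1 and -0.16 in those numbered 2). They ran from -0.94 for Tdo2, a tryptophan-degrading enzyme, to 1.07 for Fgb, the acute-phase protein fibrinogen beta. Alb, the hepatocyte product albumin, had 83280 and 99820 CPM with gavage and 110900 and 100900 CPM with ethanol alone. The main test was edgeR's quasi-likelihood F-test with Benjamini-Hochberg adjustment over 13309 tested genes, and a gene was called at an adjusted p under 0.05.

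No member was called in the comparison of gavage with ethanol alone, nor was any other gene (0 of 13309, 0.0%). The GTPases nevertheless all lay lower in the gavage group than in the ethanol-alone group (7 of 7), while the type I antiviral genes were divided between 14 lower and 11 higher. The median log2 fold change, gavage over ethanol alone, was -0.46 for the 7 GTPases, -0.04 for the 25 type I antiviral genes (0.04 with scaling by library totals) and -0.16 for the 7 factors, against 0.02 for all tested genes. Of all tested genes 48.3% had a log2 fold change below 0, against 27 of the 39 members. The difference between the GTPases and the type I antiviral genes was not tested as such. At an unadjusted p under 0.05 in edgeR's quasi-likelihood test stood 3 members, Bst2, Irf7 and Isg15, all lower in the gavage group, and none was higher. Among all tested genes 18.8% passed that threshold, 9.85% lower and 8.91% higher, so the members' share was no larger than the background.

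Groups of 2 libraries did not overlap for 17 members, with the gavage libraries lower for 15 and higher for 2. Among all tested genes 27.2% were lower without overlap and 27.5% higher without overlap. The 15 lower members comprised 6 of 7 GTPases, 8 of 25 type I antiviral genes and 1 of 7 factors. The other 22 members overlapped. DESeq2 called 1 member, Bst2, lower in the gavage group, where it called 5.43% of its 12018 tested genes lower and 4.37% higher. The likelihood-ratio test of edgeR also called Bst2 alone among the members, against 1.98% of all tested genes called lower and 2.14% called higher.

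**Figure D2:**
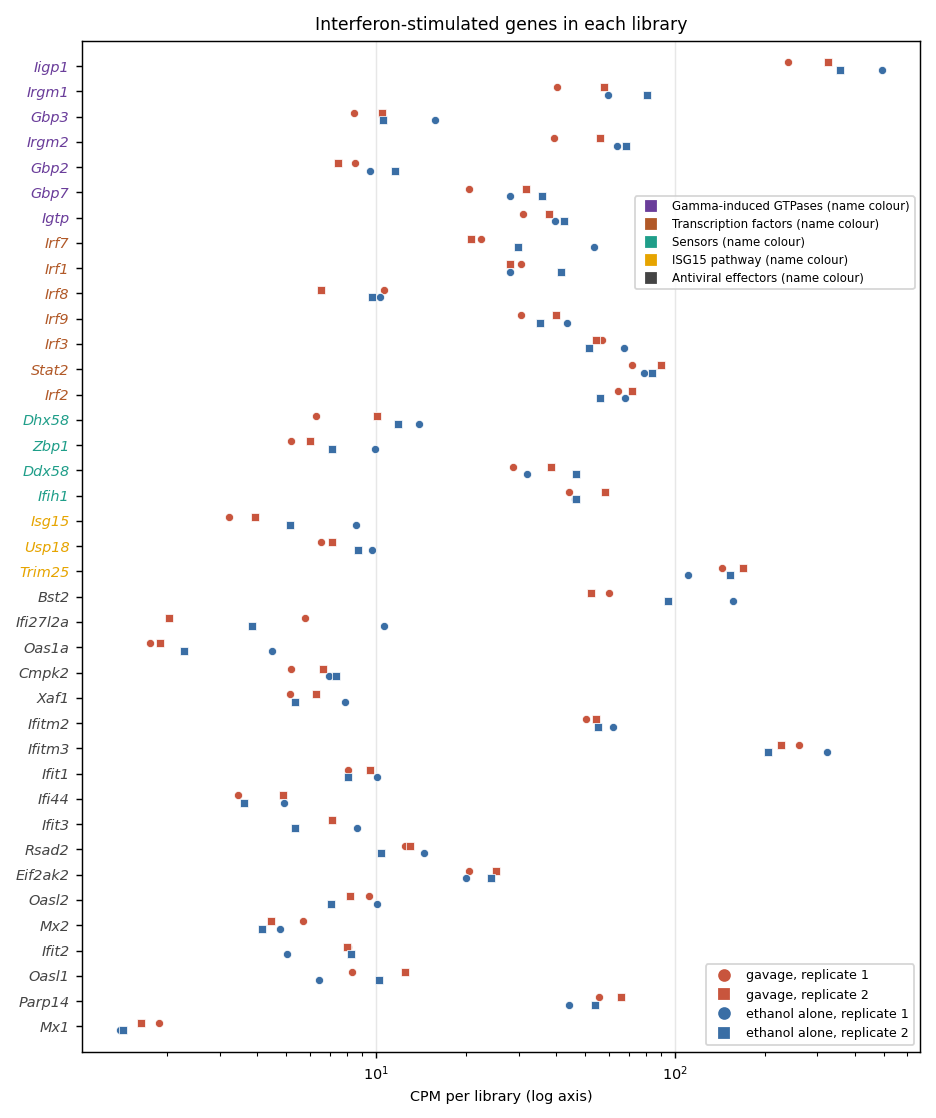
CPM of the 39 members in each library on a log axis, gavage in red and ethanol alone in blue, circles for replicate 1 and squares for replicate 2; name colours give the role. The blue points lie to the right of the red points for 6 of the 7 GTPases, whereas most antiviral effectors are interleaved.

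Iigp1, an effector Irg GTPase that strips parasite vacuoles, had the highest level per kilobase of exon of the 7, with 239 and 327 CPM with gavage against 495 and 359 CPM with ethanol alone. Both gavage libraries lay below both ethanol-alone libraries, and the log2 fold change was -0.59 (SE 0.29; edgeR adjusted p = 0.33). Some of its exon sequence is shared with the copy Gm4951 (3.19% of its 50-base stretches, 2.83% with Gm4951 itself), so a few reads could have been split.

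Irgm1, a regulatory Irg protein that keeps the effector GTPases off host membranes, had 40.2 and 58.0 CPM with gavage against 59.9 and 80.5 CPM with ethanol alone. Its groups did not overlap, though gavage replicate 2 and ethanol-alone replicate 1 lay close together (log2 fold change -0.52, SE 0.27). Irgm2, a second regulatory Irg protein, had 39.5 and 56.4 CPM with gavage against 63.8 and 68.5 CPM with ethanol alone. The gavage libraries were again the lower pair, with a log2 fold change of -0.46 (SE 0.23). Igtp, also called Irgm3 and regulatory as well, had 30.9 and 37.8 CPM with gavage against 39.8 and 42.6 CPM with ethanol alone. Without overlap, this was the smallest difference of the 7 GTPases, a log2 fold change of -0.26 (SE 0.18). Exons of Igtp and Irgm2 overlap on the same strand by 162 bases, 8.01% of the exon length of Igtp, so their counts are not fully separate. Irgm1 lies at chr11:48861968-48871683, Igtp at chr11:58199556-58207591 and Irgm2 at chr11:58199618-58222782 in the GENCODE annotation of GRCm38.

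Gbp2, a guanylate-binding protein that coats and breaks parasite vacuoles in mouse cells, had 8.47 and 7.47 CPM with gavage against 9.56 and 11.6 CPM with ethanol alone. Gbp3, of the same family, had 8.41 and 10.4 CPM with gavage against 15.7 and 10.6 CPM with ethanol alone. Neither overlapped between groups, though for Gbp3 the nearest libraries of the groups stood at 10.4 and 10.6 CPM. Gbp7 had 20.4 and 31.7 CPM with gavage against 28.04 and 35.8 CPM with ethanol alone and was the 1 GTPase whose groups overlapped. Log2 fold changes were -0.41 (SE 0.21) for Gbp2, -0.48 (SE 0.27) for Gbp3 and -0.29 (SE 0.27) for Gbp7. These 3 genes lie near each other on chromosome 3, from the start of Gbp7 at 142530342 to the end of Gbp2 at 142638008. Gbp2b, a relative that is not a member, lies between Gbp3 and Gbp2, at 142594847 to 142619179. The edgeR adjusted p-values of Gbp2, Gbp3 and Gbp7 were 0.354, 0.383 and 0.59, and those of the 4 Irg members lay between 0.33 and 0.465.

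**Figure D3:**
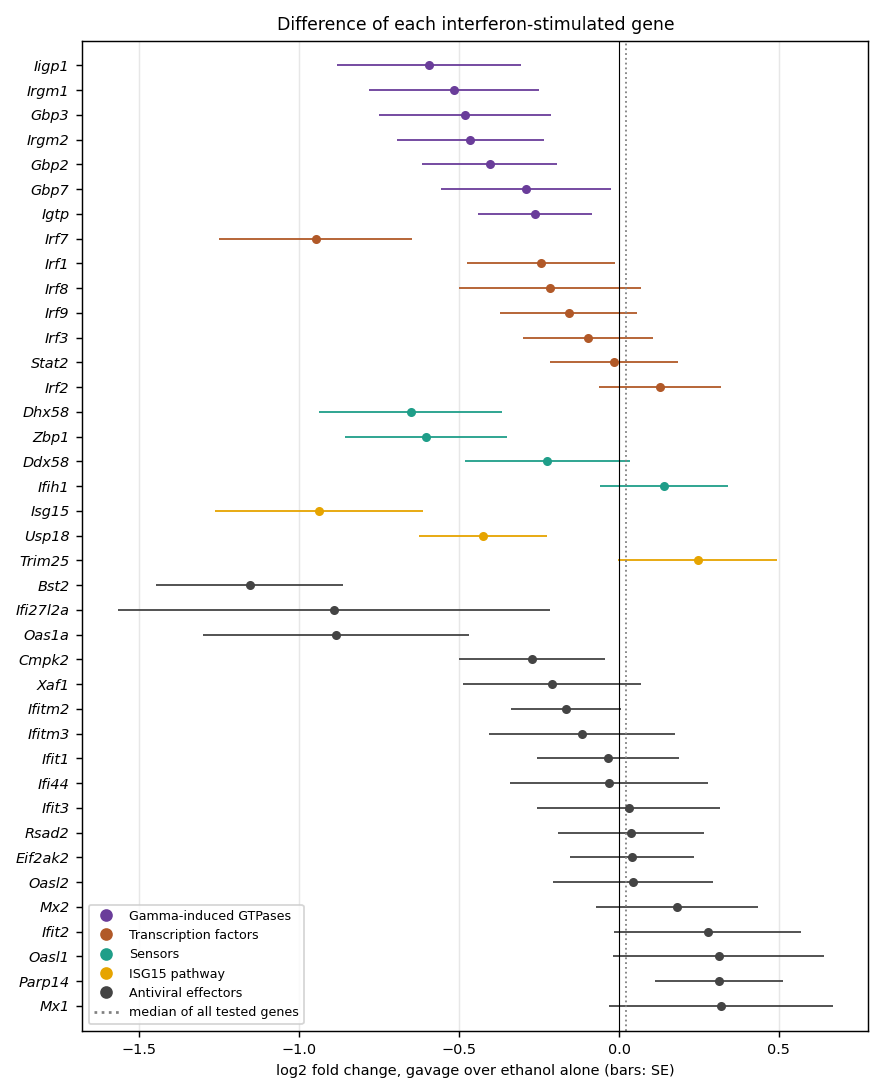
Log2 fold change of each member, gavage over ethanol alone, with its SE, coloured by role; the dotted line is the median of all 13309 tested genes (0.02). The 7 GTPases lie between -0.59 and -0.26, while the 18 effectors lie between -1.16 and 0.32.

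Among the GTPases the size of the difference depended on which pair of libraries was read. In the libraries numbered 1 the median log2 ratio of the 7 was -0.58, and in those numbered 2 it was -0.17, against 0.03 and 0.01 for all tested genes. Iigp1 stood at -1.05 in the libraries numbered 1 and -0.13 in those numbered 2, and Gbp3 at -0.91 and -0.02. Irgm1 differed least between the numbers, at -0.58 and -0.47, and Gbp2 went the other way, at -0.17 and -0.63. All 7 GTPases were below 0 in both pairs, as were 10 of the 25 type I antiviral genes and 1 of the 7 factors, 18 of 39 members in all. Of all tested genes 34.5% were lower in both pairs. For the type I antiviral genes the median log2 ratio was -0.30 in the libraries numbered 1 and 0.10 in those numbered 2. Of these 25 genes 18 were below 0 in the libraries numbered 1 and 11 in those numbered 2.

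**Figure D4:**
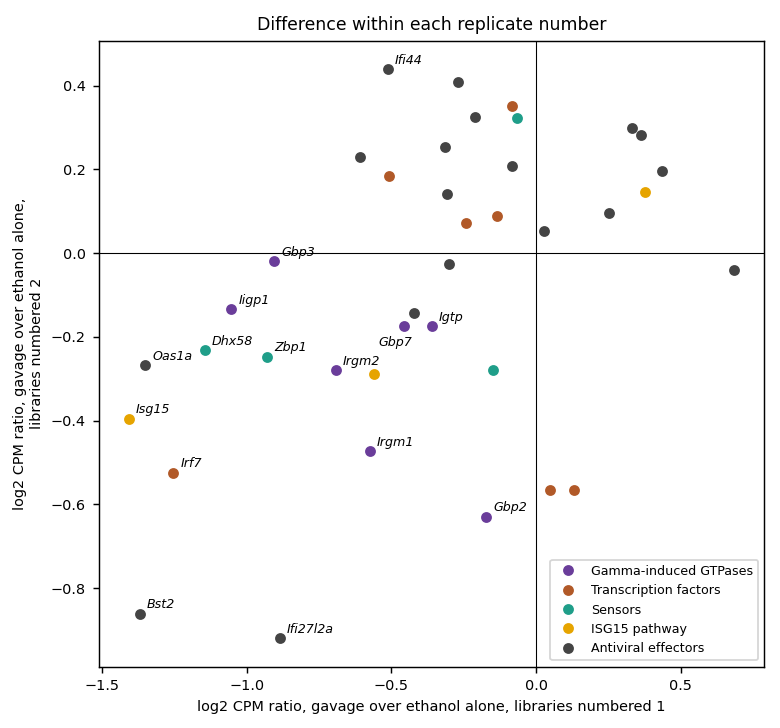
Log2 ratio of CPM, gavage over ethanol alone, within the libraries numbered 1 (x axis) and within those numbered 2 (y axis), 1 point per member, coloured by role. All 7 GTPases lie in the lower left part, whereas 30 members lie below 0 on the x axis and 21 on the y axis.

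Markers of Kupffer cells lay lower along with the GTPases. All 12 of 12 were below the ethanol-alone group without overlap, with a median log2 fold change of -0.71, and 9 were lower at an unadjusted p under 0.05 in edgeR's quasi-likelihood test (background 27.2% and 9.85%). DESeq2 called 6 of them, all lower, against 5.43% of all genes it tested. The hepatocyte markers given above had a similar median (-0.73), with 6 of 8 lower. The summed level of the Kupffer cell markers was 444 and 494 CPM with gavage against 780 and 750 CPM with ethanol alone, and none of the 12 was at 0. Cd5l, a protein secreted by macrophages and the highest of them, had 117 and 102 CPM with gavage against 181 and 173 CPM with ethanol alone. Like the GTPases, they were lower in both pairs of libraries. Their part in the difference of the GTPases was not tested, and in whole liver fewer cells of a type and less RNA per cell cannot be told apart.

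Other cell types gave less even values, and their part in the members' differences was likewise not tested. Of 9 tested markers of sinusoidal endothelium 5 lay lower, with summed levels of 504 and 534 CPM with gavage against 535 and 572 CPM with ethanol alone, and their highest, the scavenger receptor Stab2, had 74.6 and 89.5 CPM with gavage against 90.6 and 97.1 CPM with ethanol alone. Markers of lymphocytes and natural killer cells, the main makers of interferon gamma, were scarce: 13 of 15 were tested, 11 of them lower, with sums of 10.9 and 5.31 CPM with gavage against 14.2 and 7.6 CPM with ethanol alone. The highest of them, the B cell receptor chain Cd79b, had 1.21 and 0.631 CPM with gavage against 1.98 and 0.529 CPM with ethanol alone, so its groups overlapped. Of 7 neutrophil markers 4 were tested, and all 4 lay higher. Summed levels of the 7 were 17.7 and 6.31 CPM with gavage against 4.83 and 4.46 CPM with ethanol alone. The median log2 ratio of the tested markers was 2.18 in the libraries numbered 1 and 0.71 in those numbered 2. The calcium-binding protein S100a9 led, with 7.93 and 1.99 CPM with gavage against 1.39 and 1.12 CPM with ethanol alone. Of 4 tested markers of plasmacytoid dendritic cells, the main makers of type I interferon, 3 lay lower, with sums of 18.1 and 6.71 CPM with gavage against 8.24 and 1.82 CPM with ethanol alone. These sums include Cox6a2, which followed the muscle genes, with 5.13 and 0.0664 CPM with gavage against 5.97 and 0.0661 CPM with ethanol alone. Siglech, the most specific of these, had 0.382 and 0.498 CPM with gavage against 0.622 and 0.43 CPM with ethanol alone, while Ly6d, which other cells make too, had 11.9 and 5.88 CPM with gavage against 0.989 and 0.991 CPM with ethanol alone.

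Of the 7 transcription factors, Irf7 stood furthest from 0. Irf7, which amplifies the production of interferon alpha and is itself induced by type I interferon, had 22.5 and 20.8 CPM with gavage against 53.7 and 29.96 CPM with ethanol alone. The groups did not overlap, and ethanol-alone replicate 1 was far above the other 3 libraries. The log2 fold change was -0.95 (SE 0.30; edgeR adjusted p = 0.217, DESeq2 adjusted p = 0.0608), with -1.25 in the libraries numbered 1 and -0.52 in those numbered 2. Without ethanol-alone replicate 1 it was -0.49.

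The other 6 factors overlapped between groups. Stat2, a subunit of the factor that binds the ISRE, had 71.9 and 89.6 CPM with gavage against 79.0 and 84.2 CPM with ethanol alone. Irf2, which competes with Irf1 for the same sites, had 64.5 and 71.7 CPM with gavage against 68.3 and 56.2 CPM with ethanol alone. For Stat2 the gavage values lay on either side of the ethanol-alone values, and for Irf2 the groups interleaved. Log2 fold changes were -0.01 (SE 0.20) for Stat2 and 0.13 (SE 0.19) for Irf2. Irf1, induced by interferon gamma, had 30.6 and 27.97 CPM with gavage against 27.97 and 41.4 CPM with ethanol alone. Ethanol-alone replicate 2 was above the other 3 libraries, and without that library its log2 fold change was 0.01 in place of -0.24. Irf3, which starts interferon production once phosphorylated, Irf8, a factor of myeloid cells, and Irf9, the DNA-binding subunit of the ISRE factor, also overlapped, with log2 fold changes of -0.10, -0.22 and -0.16.

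Of the 4 sensors, both that detect viral RNA and signal through Mavs overlapped between groups. Ifih1 (MDA5), which binds long double-stranded RNA, had 44.2 and 58.2 CPM with gavage against 46.2 and 46.5 CPM with ethanol alone. Ddx58 (RIG-I), which binds RNA ends, had 28.8 and 38.4 CPM with gavage against 32.0 and 46.5 CPM with ethanol alone. Neither stood more than 1 SE from 0, with log2 fold changes of 0.14 (SE 0.20) and -0.23 (SE 0.26). Dhx58 (LGP2), a helicase that modulates the other two, had 6.27 and 10.1 CPM with gavage against 13.9 and 11.9 CPM with ethanol alone. Zbp1, a sensor of left-handed nucleic acid that can trigger necroptosis, had 5.19 and 6.01 CPM with gavage against 9.88 and 7.14 CPM with ethanol alone. For Dhx58 and Zbp1 the gavage libraries were the lower pair, at log2 fold changes of -0.65 (SE 0.29) and -0.60 (SE 0.25) and edgeR adjusted p-values of 0.297 and 0.282. Dhx58 stood at -1.15 in the libraries numbered 1 and -0.23 in those numbered 2, and Zbp1 at -0.93 and -0.25.

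The ISG15 pathway was divided. Isg15, a ubiquitin-like protein attached to target proteins, had 3.22 and 3.92 CPM with gavage against 8.53 and 5.15 CPM with ethanol alone, and Usp18, the protease that removes it and also restrains the type I receptor, had 6.56 and 7.11 CPM with gavage against 9.66 and 8.69 CPM with ethanol alone. Both gavage libraries lay below both ethanol-alone libraries for these genes. The log2 fold change of Isg15 was -0.94 (SE 0.33; edgeR adjusted p = 0.237), with -1.41 in the libraries numbered 1 and -0.40 in those numbered 2. It was -0.56 without ethanol-alone replicate 1 and -0.47 with an offset for gene length and GC content. That of Usp18 was -0.42 (SE 0.20; edgeR adjusted p = 0.317), with -0.56 and -0.29 in the libraries numbered 1 and 2. Trim25, a ubiquitin ligase that activates Ddx58 and also attaches ISG15, had 144 and 169.7 CPM with gavage against 111 and 153 CPM with ethanol alone. Its groups overlapped and its log2 fold change of 0.25 (SE 0.25) pointed the other way.

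Bst2 stood furthest from 0 of all 39 members. Bst2 (tetherin), a membrane protein that holds budding viruses at the cell surface, had 60.4 and 52.4 CPM with gavage against 156 and 95.1 CPM with ethanol alone. Both gavage libraries were low and alike, and the ethanol-alone libraries were higher but far apart. The log2 fold change was -1.16 (SE 0.29), a ratio of 0.449, with -1.37 in the libraries numbered 1 and -0.86 in those numbered 2. With an offset for gene length and GC content it was -0.73. The adjusted p was 0.176 in edgeR's quasi-likelihood test, 0.00497 in DESeq2 and 0.0454 in edgeR's likelihood-ratio test, so the call depended on the test. Bst2 lies at chr8:71534255-71537456, and its longest annotated transcript shares no 50-base stretch with another annotated gene.

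A few other effectors did not overlap between groups. Oas1a, a synthase of the oligoadenylates that activate RNase L, had 1.75 and 1.89 CPM with gavage against 4.47 and 2.28 CPM with ethanol alone (log2 fold change -0.89, SE 0.42). Its log2 ratio was -1.35 in the libraries numbered 1 and -0.27 in those numbered 2, and without ethanol-alone replicate 1 the log2 fold change was -0.35. More than any other member it shares sequence with a copy, since 57.6% of its 50-base stretches also occur in Oas1g, so this level is uncertain. Cmpk2, a nucleotide kinase of mitochondria, had 5.19 and 6.64 CPM with gavage against 6.96 and 7.33 CPM with ethanol alone. Ifitm2, which blocks viral entry from endosomes, had 50.5 and 54.5 CPM with gavage against 62.2 and 55.5 CPM with ethanol alone, and 48.5% of its 50-base stretches are shared, chiefly with Gm45717. Exons of Ifitm2 and Gm45717 overlap on the same strand over 40.9% of the exon length of Ifitm2. The log2 fold changes were small, -0.27 (SE 0.23) for Cmpk2 and -0.16 (SE 0.17) for Ifitm2. Under the alternative fits described below, that of Ifitm2 ranged from -0.299 to 0.265, so its direction depended on the processing. Higher in both gavage libraries were Parp14, an ADP-ribosyltransferase, with 55.5 and 66.3 CPM with gavage against 44.2 and 53.9 CPM with ethanol alone, and Mx1, a dynamin-like GTPase, with 1.88 and 1.63 CPM with gavage against 1.39 and 1.42 CPM with ethanol alone. Their log2 fold changes were 0.31 (SE 0.20) and 0.32 (SE 0.35), with edgeR adjusted p-values of 0.436 and 0.656.

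The remaining 12 effectors overlapped between groups. Ifitm3, the entry inhibitor with the highest level of all members per kilobase of exon, had 260.5 and 226 CPM with gavage against 322 and 205 CPM with ethanol alone. The ethanol-alone values lay on either side of the gavage values, and the log2 fold change was -0.12 (SE 0.29). Of the effectors near 0, 5 were chosen after their values were seen. Their log2 fold changes were -0.04 for Ifit1, 0.03 for Ifit3, 0.04 for Rsad2, -0.03 for Ifi44 and 0.04 for Oasl2. Ifit1 binds viral RNA and blocks its translation, and Rsad2 (viperin) makes a chain-terminating nucleotide. Ifit1 had 8.06 and 9.57 CPM with gavage against 10.0 and 8.03 CPM with ethanol alone, and Rsad2 had 12.5 and 13.0 CPM with gavage against 14.4 and 10.4 CPM with ethanol alone. Other type I targets among the members stood lower, as given above for Irf7, Isg15, Oas1a and Usp18. For 4 of the 5 genes near 0 the ethanol-alone libraries held both the highest and the lowest value, and for Ifi44 the groups interleaved. Eif2ak2 (PKR), a kinase that stops translation on sensing double-stranded RNA, stood at 0.04 (SE 0.19).

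Larger differences with overlapping groups were those of Ifit2 (0.28, SE 0.29), of Oasl1, which restrains Irf7 translation in mouse cells (0.31, SE 0.33), of Mx2 (0.18, SE 0.25) and of Xaf1, a promoter of apoptosis (-0.21, SE 0.28). Ifi27l2a, a small membrane protein, had the widest error of the members at -0.89 (SE 0.67). It had 5.76 and 2.03 CPM with gavage against 10.7 and 3.83 CPM with ethanol alone, so that both libraries numbered 1 were high and both numbered 2 low. Its log2 ratio was -0.89 in the libraries numbered 1 and -0.92 in those numbered 2. Without ethanol-alone replicate 1 its log2 fold change was 0.01. Ifit3 shares 51.2% of its 50-base stretches with Ifit3b, and Mx2 is annotated as a polymorphic pseudogene.

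Levels can be set against each other only per length of exon. In CPM per kilobase of exon, Ifitm3 led with 359 ± 36.0 in the gavage group and 389 ± 123 in the ethanol-alone group (SD, n = 2 each). Bst2 came next over all 4 libraries with 62.5 ± 6.29 in the gavage group and 139 ± 47.7 in the ethanol-alone group, followed by Ifitm2 with 80.1 ± 4.35 in the gavage group and 89.8 ± 7.16 in the ethanol-alone group. The order of Bst2 and Ifitm2 thus differed between the groups, with Ifitm2 above Bst2 in the gavage group. Iigp1 came after these, at 48.5 ± 10.7 in the gavage group and 73.3 ± 16.6 in the ethanol-alone group, and the 3 Gbp members lay far below it, between 3.46 and 5.17 over all libraries. Lowest were Ifi44 at 0.686 and Mx1 at 0.417 over all libraries.

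Interferon transcripts themselves were barely detected. Of 20 interferon genes listed, 17 had no count in any library and none had enough to be tested, with at most 5 counts summed over the 4 libraries. Ifng, the gene of interferon gamma, was at 0 and 0.0332 CPM with gavage against 0.11 and 0.033 CPM with ethanol alone, at or below the level of 3 counts, so no difference was detectable at this depth. Receptors and kinases were mixed, 4 of 10 lower and 6 higher, with 3 at an unadjusted p under 0.05 in edgeR, all higher (background 8.91% higher). Jak1, the kinase shared by the type I and gamma receptors, had 300.5 and 259.6 CPM with gavage against 123 and 165 CPM with ethanol alone. Its groups were well separated, with a log2 fold change of 0.96 (SE 0.25), an edgeR adjusted p of 0.178 and a DESeq2 adjusted p of 0.00312.

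Negative regulators were divided 3 lower and 3 higher. Socs3, a feedback inhibitor of Jak kinases, had 32.2 and 18.0 CPM with gavage against 8.93 and 7.0 CPM with ethanol alone. Both gavage libraries were high, at a log2 fold change of 1.66 (SE 0.33), an edgeR adjusted p of 0.141 in the quasi-likelihood test and a DESeq2 adjusted p of 0.000648. Ptpn11 (SHP2), the regulator with the highest CPM, had 109 and 113 CPM with gavage against 66.0 and 93.1 CPM with ethanol alone (log2 fold change 0.48, SE 0.24). Of 13 genes of the machinery that induces interferon, 5 lay lower and 8 higher, and 1 each way had an unadjusted p under 0.05 in edgeR, no more than the background of 9.85% lower and 8.91% higher. Mavs, the adaptor of Ddx58 and Ifih1, had 74.9 and 92.1 CPM with gavage against 87.0 and 126 CPM with ethanol alone, which overlapped. Unc93b1, which escorts Toll-like receptors to endosomes, had 34.1 and 29.99 CPM with gavage against 43.5 and 46.9 CPM with ethanol alone (log2 fold change -0.50, SE 0.17, edgeR adjusted p = 0.227).

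Further interferon targets outside the 39 were counted in the same way. Of 25 tested gamma-induced genes that are not members, 20 lay lower and 5 higher (80% lower, against 48.3% of all tested genes). Their median log2 fold change was -0.61, and 11 were lower and 1 higher at an unadjusted p under 0.05 in edgeR (background 9.85% and 8.91%). Without overlap 16 lay lower (background 27.2%). DESeq2 called 5 of them, all lower, against 5.43% of all genes it tested called lower and 4.37% called higher. Gbp10, a relative of the Gbp members, had 0.509 and 0.764 CPM with gavage against 3.48 and 2.44 CPM with ethanol alone. It had the smallest p of this list, with a log2 fold change of -2.21 (SE 0.42), an edgeR adjusted p of 0.134 and a DESeq2 adjusted p of 0.00476. Its counts were low, 16 and 23 with gavage against 95 and 74 with ethanol alone. Gbp11, another relative on chromosome 5, was the 1 higher gene at that threshold, with 1.72 and 2.69 CPM with gavage against 0.879 and 0.991 CPM with ethanol alone (log2 fold change 1.23, SE 0.41). Shared sequence was searched only for members, so splitting of reads between such relatives was not checked. Gm4951, the copy of Iigp1 named above, had 63.3 and 89.5 CPM with gavage against 156 and 124 CPM with ethanol alone, again without overlap (log2 fold change -0.87, SE 0.26).

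Of 50 tested type I targets that are not members, 34 lay lower and 16 higher, with a median log2 fold change of -0.13, 4 lower and 1 higher at an unadjusted p under 0.05 in edgeR (background 9.85% and 8.91%), and 15 lower and 6 higher without overlap (background 27.2% and 27.5%). DESeq2 called 3 of them lower and 1 higher (background 5.43% and 4.37%). The lower counts by unadjusted p, by overlap and by DESeq2 are near the background and are no result about this list. The share that lay lower was 68%, against 48.3% of all tested genes, and was not tested. By number, 35 of the 50 genes were below 0 in the libraries numbered 1 and 22 in those numbered 2. Ly6e, a membrane-anchored protein that hinders coronavirus entry, had the highest CPM of these, with 222 and 197 CPM with gavage against 459 and 299.5 CPM with ethanol alone. Its log2 fold change was -0.85 (SE 0.28), with an edgeR adjusted p of 0.226 and a DESeq2 adjusted p of 0.0318. Apol9b, an apolipoprotein L gene, had 5.35 and 12.2 CPM with gavage against 55.6 and 32.4 CPM with ethanol alone. All 4 values were well separated by group, at a log2 fold change of -2.32 (SE 0.48), an edgeR adjusted p of 0.143 and a DESeq2 adjusted p of 4.85e-05.

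**Figure D5:**
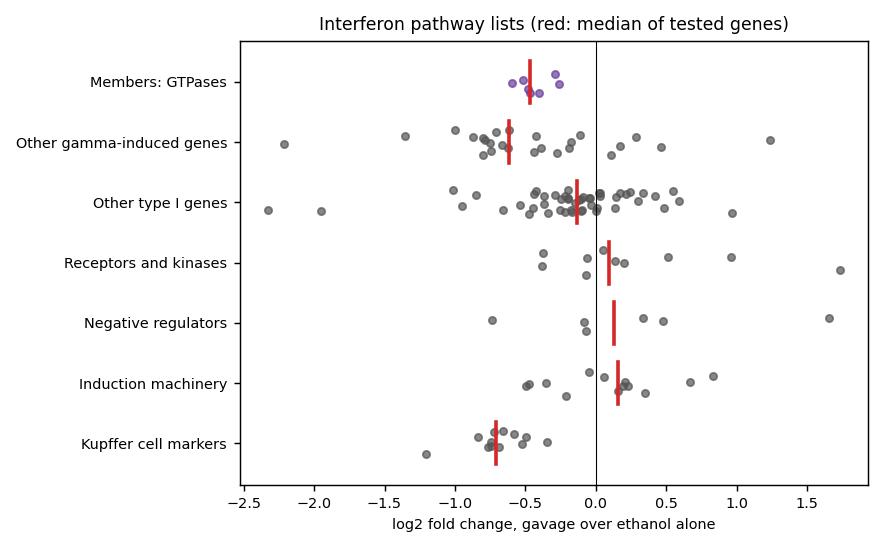
Log2 fold change, gavage over ethanol alone, of each tested gene (points) and the median (red bars) for the 7 GTPase members, 5 pathway lists and the Kupffer cell markers; points are spread vertically only to separate them. The medians of the GTPase members (-0.46), of the other gamma-induced genes (-0.61) and of the Kupffer cell markers (-0.71) lie left of that of the other type I genes (-0.13). Among cell types not drawn, the median was -0.73 for hepatocyte markers and -0.49 for lymphocyte and natural killer cell markers. It was -0.07 for sinusoidal endothelium and 1.87 for the 4 tested neutrophil markers (2.18 in the libraries numbered 1 and 0.71 in those numbered 2).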

How the data were processed

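Messenger RNA of 4 mouse liver libraries was measured by sequencing, and titles assigned the groups. The labels' treatment protocol is identical for all 4 and describes the binge for the ethanol-alone libraries too, so that their lack of a binge rests on the titles and the matching treatment tag. The authors deposited raw counts per gene symbol, 1 column a library. Per the submitters' processing notes, build GRCm38, HTSeq, edgeR, STAR 2.6.0a and bcl2fastq 2.20.0.422 were used, with no roles given. Which annotation and strand setting the counting used, and what became of multi-mapping reads, is not given in the sources used here; near-identical copies and overlapping genes could have lost or split counts. Total counts lay between 28791281 and 30347558.

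From the deposited counts, edgeR 4.0.16 in R 4.3.3 was run with filterByExpr (minimum count 10, minimum total 15; 13309 genes kept), TMM scaling, no covariate, and the 2-sided quasi-likelihood F-test. P-values were adjusted over all tested genes. The SE was derived from the test as the size of the log2 fold change over the square root of F. Replicates differed by more than counting noise, with a chi-square per degree of freedom of 135 in the gavage group and 126 in the ethanol-alone group. Alternatives were DESeq2 1.42.0 (also its size factors alone), library totals, no filter or at least 1 CPM in 2 libraries, edgeR's likelihood-ratio test, limma 3.58.1 with voom, a replicate block, an offset for gene length and GC content by loess (span 0.5; 98.5% of tested genes had both), and each library left out. Ratios within libraries of the same number were added after seeing the data. Exon lengths, overlaps and shared 50-base stretches came from GENCODE models of GRCm38, with the stretches taken from the longest transcript of each member. Genes named with values were all GTPases and, in each other role, those with the highest mean CPM, the extreme log2 fold changes or an unadjusted p under 0.05; in each pathway list the highest mean CPM and the smallest p; in each cell list the highest mean CPM. Others were chosen after their values were seen. The members and lists were chosen with earlier results of these data known. The script was tested on simulated counts with a smaller spread between replicates than these data, which does not show what it can call here.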

Additional observations from a re-analysis of the deposited data

How the results depend on the processing

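With 2 libraries a group, the quasi-likelihood test of edgeR called 0 members and 0 of all tested genes, and limma-voom also called 0 of each, so direction and size are read from the values rather than from calls. DESeq2 called 1 member and 1177 of all tested genes, the likelihood-ratio test of edgeR 1 member and 549 genes, and the member was Bst2 in each. The length and GC offset called 4 genes and no member. Leaving out 1 library at a time called 0 to 31 genes and 0 members; the 31 came without gavage replicate 2 and 12 without ethanol-alone replicate 2. The median log2 fold change of the type I antiviral members lay between -0.29 and 0.005 when 1 library was left out, -0.29 coming without ethanol-alone replicate 2. It was 0.04 with library totals, -0.30 in the libraries numbered 1 alone and 0.10 in those numbered 2 alone. That of the GTPases lay between -0.65 and -0.27 when 1 library was left out and was -0.17 in the libraries numbered 2 alone. All 91 values of the 7 GTPases under 13 alternatives were below 0. These alternatives reuse the same 4 libraries, most of them all 4, so counts of signs are not independent support. For the 6 GTPases whose groups did not overlap, leaving out 1 library could hardly turn the sign. Of the 18 members beyond 1 SE of 0, 232 of 234 values kept their sign under the same alternatives. The exceptions were Ifi27l2a, between -1.83 and 0.006 when 1 library was left out (0.006 without ethanol-alone replicate 1), and Irf1, between -0.53 and 0.013 (0.013 without ethanol-alone replicate 2). The log2 fold change of Bst2 ranged from -1.52 to -0.73 over all alternatives, that of Irf7 from -1.36 to -0.49 and that of Isg15 from -1.31 to -0.47. The adjusted p of Bst2 ranged from 0.00497 to 0.554, that of Irf7 from 0.0608 to 0.595 and that of Isg15 from 0.109 to 0.637. The causes of these shifts were not tested.

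The libraries share replicate numbers, but the labels do not say that a number marks an animal or batch, and with 2 pairs the deviations from the group means of same-numbered libraries correlated at 0.587. With the replicate block, edgeR called 0 members and 410 of all tested genes (238 higher and 172 lower), the median of the GTPases was -0.46, and Bst2 had an adjusted p of 0.0553. Outside the members, Socs3 (0.0231), Apol9b (0.0495) and Gbp10 (0.0448) were called with the block.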
